A study of Mus musculus with 18 samples.

Results

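The regions described here are 580 promoters at which mouse embryonic fibroblasts (MEFs) lacking Kap1 had a peak of H3K27ac and their WT counterparts had none. They were selected on the H3K27ac peak lists themselves: a Kap1 KO peak was called gained when it shared no base with any WT peak and lay within 1 kb of a transcript start of the GENCODE annotation of mm9. Autosomes other than chromosome 18 were used. The 580 gained peaks were 4.92% of the 11785 promoter peaks of the Kap1 KO cells, whereas of all 34078 Kap1 KO peaks, at promoters or elsewhere, 21.8% met the same overlap rule. The other 11205 promoter peaks of Kap1 KO cells lay over a WT peak and are called kept. In the opposite direction, 1078 of 12271 WT promoter peaks (8.78%) shared no base with a Kap1 KO peak and are called lost. As the rule uses the presence of a peak in each genotype, these counts and the scores of the gained peaks are a description, with no test.

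The MEFs were embryonic cells labelled C57BL/6, which the methods give as C57BL/6J. WT cells were Kap1 loxP/loxP with the gene intact, and Kap1 KO cells had lost it by excision. The RNA-seq of the study relied on a single KO clone after long culture. Whether the ChIP-seq came from that clone is not given in the sources used here, and with 1 library a genotype the deletion and other differences between the cultures cannot be told apart. H3K27ac and H3K9me3 were measured by ChIP-seq in both genotypes. KAP1 and SETDB1 were measured in Hepa 1.6, a mouse hepatoma line of C57L background labelled Hepa 1-6 and WT for Kap1, which is another cell type than the MEFs. Each condition had 1 library, so no p-value between genotypes exists, and the exact Clopper-Pearson 95% intervals given below cover counting error among promoters and not variation between cultures.

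KAP1, encoded by Trim28, is a scaffold protein that KRAB-containing zinc finger proteins (KZFPs) bring to DNA. It recruits the histone methyltransferase SETDB1, which writes H3K9me3, a mark of silent chromatin, and it is best known for keeping transposable elements silent. H3K27ac marks active promoters and enhancers, so a promoter with H3K27ac in one genotype is a candidate for altered activity there. KZFP genes lie in clusters of closely related copies and can themselves be bound by KAP1.

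The upstream sequences of examples from 3 groups of gained promoters are shown. The stretches are the bases just before an annotated start on the strand of the gene, read from mm9, and overlap no annotated exon. The first group are antiviral genes of the interferon response. Capitals mark each match, on either strand, to the interferon element, spelled GAAA, any 2 bases and GAAA, and matches that overlap run together. The genes printed are examples with the element. Gbp6 and Mx2, gained interferon genes of higher score, had no match from 250 bases before to 50 after any start. The Oasl2 stretch had no match either, lay outside the gained peak and is not printed. All 140 bases of each stretch printed lie inside the gained peak. They are Oas3 at chr5:121227671-121227810 (minus strand), Rtp4 at chr16:23609865-23610004 (plus), Oas1a at chr5:121357537-121357676 (minus) and Isg15 at chr4:155574928-155575067 (minus).
Oas3: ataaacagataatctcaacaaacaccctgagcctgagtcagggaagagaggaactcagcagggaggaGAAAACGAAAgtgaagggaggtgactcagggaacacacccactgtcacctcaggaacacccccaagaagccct
Rtp4: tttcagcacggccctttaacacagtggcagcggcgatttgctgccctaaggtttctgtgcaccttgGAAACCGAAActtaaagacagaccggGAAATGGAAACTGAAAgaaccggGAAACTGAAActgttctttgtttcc
Oas1a: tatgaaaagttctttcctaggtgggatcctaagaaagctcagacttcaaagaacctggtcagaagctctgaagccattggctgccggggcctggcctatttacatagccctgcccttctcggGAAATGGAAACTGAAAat
Isg15: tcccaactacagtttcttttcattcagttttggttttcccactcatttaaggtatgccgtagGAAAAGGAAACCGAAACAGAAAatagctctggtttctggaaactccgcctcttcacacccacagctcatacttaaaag

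The second group are KZFP genes of chromosome 4, most of whose gained promoters are related in sequence. Capitals mark ggaagctaattaa, the longest run of bases held by the 300 bases before the starts of 11 of the 12 gained KZFP promoters there. They are Gm13051 at chr4:146068850-146069049 (plus), Gm13247 at chr4:145696013-145696212 (minus) and Zfp600 at chr4:146124025-146124224 (plus), each of 200 bases and inside its gained peak.
Gm13051: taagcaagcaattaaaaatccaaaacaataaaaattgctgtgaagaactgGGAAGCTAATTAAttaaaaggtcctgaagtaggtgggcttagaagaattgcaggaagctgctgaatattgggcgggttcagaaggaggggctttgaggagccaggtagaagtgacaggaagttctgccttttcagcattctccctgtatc
Gm13247: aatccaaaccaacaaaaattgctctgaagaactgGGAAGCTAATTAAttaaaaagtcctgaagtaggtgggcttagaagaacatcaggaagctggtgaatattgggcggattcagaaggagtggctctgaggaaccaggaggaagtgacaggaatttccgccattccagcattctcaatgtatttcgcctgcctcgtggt
Zfp600: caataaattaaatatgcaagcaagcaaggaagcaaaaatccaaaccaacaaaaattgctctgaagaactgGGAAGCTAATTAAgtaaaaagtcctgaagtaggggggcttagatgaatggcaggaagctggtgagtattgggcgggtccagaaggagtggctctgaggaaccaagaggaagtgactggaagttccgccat

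The third group shows how far gained promoters differ in CpG content, with every CpG in capitals. Irx1 at chr13:72101172-72101371 (minus) and Fcgr3 at chr1:172995067-172995266 (minus) are CpG-rich and were bound by KAP1 in Hepa 1.6 cells. Slfn2 at chr11:82878414-82878613 (plus) is CpG-poor, as most gained promoters were. The stretches of Irx1 and Slfn2 lie inside the gained peak, and 73 of the 200 bases of Fcgr3 do.
Irx1: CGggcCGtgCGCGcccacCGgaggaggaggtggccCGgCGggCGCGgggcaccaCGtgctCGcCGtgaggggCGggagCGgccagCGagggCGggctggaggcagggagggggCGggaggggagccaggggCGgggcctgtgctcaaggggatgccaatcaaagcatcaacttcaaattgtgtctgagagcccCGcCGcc
Fcgr3: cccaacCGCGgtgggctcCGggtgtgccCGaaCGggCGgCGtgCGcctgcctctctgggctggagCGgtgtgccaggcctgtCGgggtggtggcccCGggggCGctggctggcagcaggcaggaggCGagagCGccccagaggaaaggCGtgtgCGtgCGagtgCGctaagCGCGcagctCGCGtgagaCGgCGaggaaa
Slfn2: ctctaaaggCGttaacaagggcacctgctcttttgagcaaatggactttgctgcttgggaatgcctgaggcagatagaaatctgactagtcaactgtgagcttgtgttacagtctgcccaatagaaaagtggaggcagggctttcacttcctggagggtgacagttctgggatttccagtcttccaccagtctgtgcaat

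The cells were checked by H3K27ac at marker genes. The 10 fibroblast markers measured, among them Col1a1, Vim and Twist1, had a promoter peak in both genotypes, with scores of 774 or more in WT and 1142 or more in Kap1 KO cells. None of the 4 hepatocyte and 4 pluripotency markers measured had one. Of the other markers, Cd68, Tubb3 and Syt1 had a peak in both genotypes and Krt8 in WT only. Trim28 itself had a promoter peak of score 3100 in both, which does not test the deletion. The peak lists were of like size, with 34078 peaks in Kap1 KO and 34573 in WT for H3K27ac, whereas H3K9me3 had 4161 peaks in Kap1 KO and 14192 in WT cells.

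Gained promoter peaks were mostly weak. The score, which MACS derives from the negative log10 of the p-value of a peak against total input and ran from 50 to 3233 here, had a median of 154 over gained peaks (quartiles 83.1 and 309) and of 3100 over kept peaks. The upper quartile of kept peaks was 3100 too, so the scores of strong peaks pile up at that value. Lost peaks resembled the gained ones, with a median of 167. Gained peaks were also narrower, with a median of 1336 bp against 2650 bp for kept and 1306 bp for lost peaks. The share of promoter peaks that were gained fell from 42.9% (203 of 473) at scores from 50 to 100 to 5.57% (48 of 861) at scores from 500 to 1000. At 3100 or more it was 0.172% (10 of 5803). Signal below the calling threshold in WT cells was not tested, since reads were not used.

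**Figure D1:**
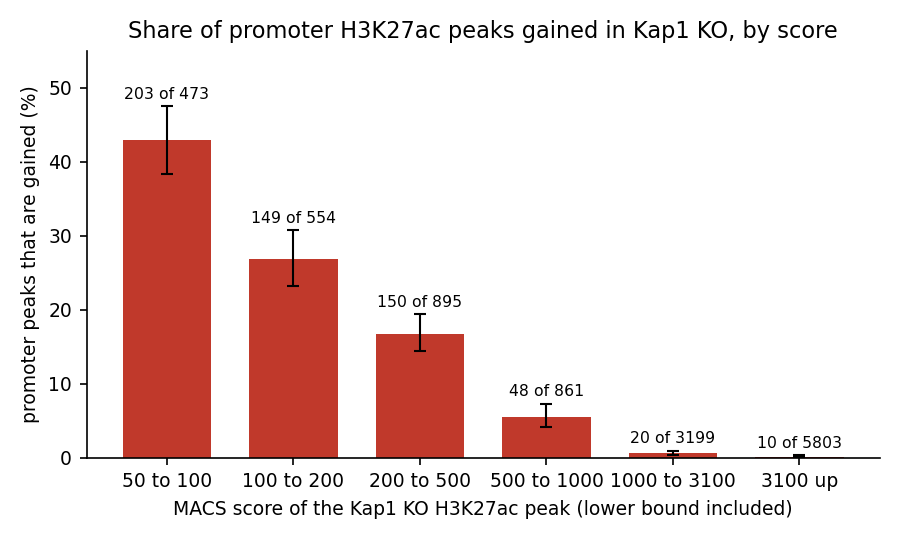
Percent of promoter H3K27ac peaks of Kap1 KO cells that were gained (y axis), by MACS score of the peak (x axis), with exact 95% intervals and the counts above the bars. The share fell from 42.9% at scores of 50 to 100 to 0.172% at 3100 or more.

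By nearest start, the 10 gained peaks of score 3100 stood at non-coding genes and pseudogenes except for 2. The peak assigned to 1700011J10Rik also lay within 1 kb of a start of Gm11084, a gene of protein-coding type. They were the ribosomal protein pseudogene Rpl12-ps2, the pseudogene Gm15913, an annotated copy each of 5S_rRNA and of the small nucleolar RNA SNORA17, AL844840.2, AC160471.1, 1700011J10Rik, 1700110K17Rik and, of protein-coding type, Gm17583 and Pgbd5. Pgbd5, a domesticated piggyBac transposase gene, had, like 1700011J10Rik, a WT peak at another start, and its gained peak at chr8:126908609-126912444 began 189 bp from the start concerned. Next in score were Rpl14-ps1 with 2841 and Irx1 with 2657. Irx1 encodes an Iroquois homeobox transcription factor of the developing embryo, and no WT peak lay within 109638 bp of it.

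**Figure D2:**
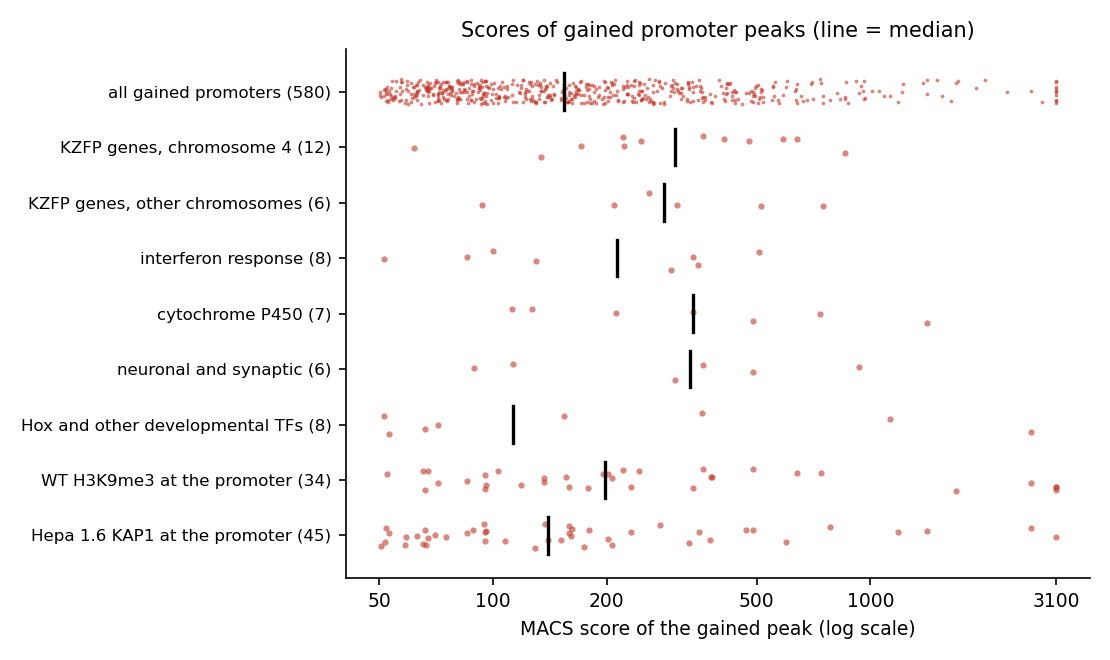
MACS scores of gained promoter peaks (x axis, log scale) for all 580 and for groups of them (y axis, number of peaks in brackets), where each point is a peak and each line a median. Medians ran from 113 for Hox and other developmental factors to 339 for cytochrome P450 genes, against 154 for all gained peaks.

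Gained peaks sat less squarely on promoters than kept ones did. A start lay inside the peak in 54.1% of gained (314 of 580, interval 49.98 to 58.2%), 93.9% of kept and 70.3% of lost peaks. The nearest start was of a protein-coding gene in 68.4% of gained, 94.1% of kept and 82.4% of lost peaks. Pseudogenes were nearest at 56 gained peaks (9.66%, against 1.02% of kept and 3.71% of lost) and small RNA genes at 52 (8.97%, against 1.78% and 6.12%). Genes without a promoter peak in either genotype held 18.8% pseudogenes and 21.1% small RNA genes. For 408 gained peaks (70.3%) the gene had no WT peak within 1 kb of any start. For the other 172 a WT peak lay within 1 kb of a start of the same gene, which need not be a different start. Their distances to a WT peak began at 15 bp. Those 172 lay closer to a WT peak, with a median distance of 4763 bp against 26674 bp. They also had a lower median score, 127 against 165.

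The sequence of gained promoters resembled that of genes carrying no H3K27ac more than that of kept promoters. Over 1 kb around the start, the observed to expected CpG ratio had a median of 0.238 in gained promoters (order-statistic 95% interval 0.222 to 0.255; quartiles 0.156 and 0.371). It was 0.718 in kept promoters, 0.400 in lost promoters and 0.211 at the 19666 genes without a promoter peak. A ratio of at least 0.6, typical of CpG islands, was found in 9.48% of gained (55 of 580, interval 7.22 to 12.2%), 68.7% of kept and 30.1% of lost promoters. Low score went with low CpG content among kept promoters too. Among the 983 kept peaks of score up to 309, the gained upper quartile, the median ratio was 0.327 and 23.5% reached 0.6. Within the gained set, the 290 peaks of higher score had a median of 0.218 and the 290 of lower score 0.255.

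**Figure D3:**
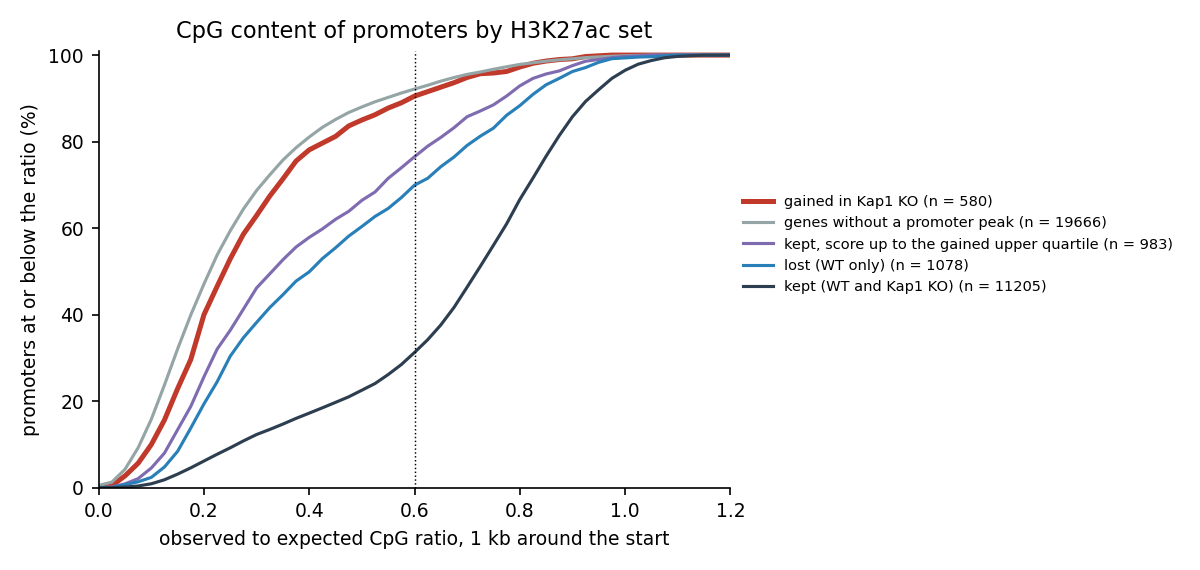
Cumulative share of promoters (y axis, percent) with an observed to expected CpG ratio up to the value on the x axis, for gained, kept, lost and unmarked promoters and for kept promoters of low score, with a dotted line at 0.6. The gained curve (median 0.238) runs beside that of genes without a promoter peak (0.211) and far from that of kept promoters (0.718).

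Short promoter motifs were counted from 250 bases before to 50 after the start, on both strands, over 570 distinct starts of gained promoters. TATAAA, the TATA box, was in 17.7% of gained, 5.93% of kept, 9.58% of lost and 12.6% of all annotated starts. GGGCGG, the GC box, was in 19.6% of gained, 61.7% of kept and 35.4% of all starts. CCGGAAGT, bound by ETS factors, was in 0.526% of gained (3 starts) against 7.37% of kept and 3.95% of all starts. Both GC-rich words were thus rarer, and TATAAA more frequent, at gained than at kept starts. This was not particular to gained promoters. Starts of genes without a promoter peak (unmarked) had TATAAA in 21.55%, GGGCGG in 12.93% and CCGGAAGT in 0.621%. TGANTCA, the AP-1 word, was in 12.6% of gained starts (interval 10.0 to 15.6%), against 5.82% of kept, 8.26% of lost, 8.96% of unmarked and 6.89% of all starts. The interferon element was in 5.61% of gained (32 starts, interval 3.87 to 7.83%), 3.20% of kept, 5.35% of unmarked and 3.98% of all starts. A match is a description of the letters and not a bound site.

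H3K9me3 in WT cells was more frequent at gained than at kept promoters. Among protein-coding genes its share was, as counted here, close to that of genes carrying no H3K27ac. For these unmarked genes every start of the gene counted, and for the other sets only starts within 1 kb of the peak. This can raise the unmarked share. A WT H3K9me3 peak lay within 1 kb of the start at 34 gained promoters (5.86%, interval 4.09 to 8.10%), while 0.899% of all promoter peaks of Kap1 KO cells had one. The share was 0.643% at kept promoters (72 of 11205, interval 0.503 to 0.809%), 2.69% at lost promoters (29 of 1078; 1.81 to 3.84%) and 3.25% at genes without a promoter peak (640 of 19666; 3.01 to 3.51%). The interval of the gained promoters lies above those of these 3 sets when all gene types are counted. Where the nearest start was of a protein-coding gene, the share was 4.53% of gained (18 of 397, 2.71 to 7.07%), 0.540% of kept, 2.93% of lost (1.92 to 4.26%) and 4.43% of unmarked promoters (403 of 9105, 4.01 to 4.87%). There, and with the peak middle required within 1 kb of a start (4.37%, 2.57 to 6.91%), the gained interval overlaps those of the lost and unmarked promoters. Among kept peaks of low score it was 1.63% (16 of 983; 0.933 to 2.63%). With 20 kb allowed, 30.5% of gained and 19.14% of kept promoters had such a peak. The great majority of gained promoters, 546 of 580, had no WT H3K9me3 peak at the start.

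Of the 34 WT H3K9me3 peaks, taking the highest in score at each promoter, 24 shared a base with the gained peak. In Kap1 KO cells, 1 of these 34 had an H3K9me3 peak over it. Over all 14192 WT H3K9me3 peaks, 436 (3.07%) had one, so the share at gained promoters (2.94%, interval 0.0744 to 15.3%) was near that background.

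The highest WT H3K9me3 scores belonged to a mixture of developmental, immune and repeated genes. Hoxa13, a homeobox gene of distal limb and urogenital patterning, was highest with 1385, over chr6:52208317-52212188. Its gained H3K27ac peak was weak (66.2) and lay wholly inside that domain. Fcgr3, an IgG receptor of blood cells, followed with 563 and also had a weak gained peak (67.4) inside the domain. The KZFP-region pseudogene Gm13245 had 470, Cyp21a2-ps, a copy of the steroid 21-hydroxylase gene, 260, and Ppp4r4, a protein phosphatase subunit gene, 232. Zfp335 with 227 and D6Mm5e with 208 also had a WT H3K27ac peak within 1 kb of a start of the gene. AC160471.1 with 211 and Gm11432 with 205 combined H3K9me3 with strong gained peaks, of score 3100 and 1688. The U6 copy with 189, Gm15784 with 160 and Ms4a10 with 158 complete the 12 highest. Gtsf1, a gene of the piRNA pathway that protects the germline from transposons, came next with 150 and was chosen after its value was seen. Its gained peak was strong (741) and covered a start, around which the CpG ratio was 0.0288. Its H3K9me3 peak stood upstream of the gained peak, at chr15:103260733-103261674, and was counted through another start of the gene.

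Binding of KAP1 in Hepa 1.6 cells was less frequent at gained than at kept promoters, and more often shared with SETDB1. A KAP1 peak lay within 1 kb of the start at 45 gained promoters (7.76%, interval 5.72 to 10.2%), 28.5% of kept, 8.53% of lost and 2.98% of unmarked promoters, against 27.5% of all promoter peaks of Kap1 KO cells. As for H3K9me3, every start of an unmarked gene counted. Where the nearest start was of a protein-coding gene, the share was 5.79% of gained (23 of 397; 3.71 to 8.57%) and 29.2% of kept promoters. It was 8.45% of lost and 4.04% of unmarked promoters there (368 of 9105; 3.65 to 4.47%), and the gained and unmarked intervals overlap. Kept peaks of low score had 8.14% (80 of 983), which overlaps the interval of the gained promoters. The SETDB1 list of Hepa 1.6 cells is made of entries of the KAP1 list, so it marks KAP1 peaks shared with SETDB1. It held 17 of the 45 KAP1-bound gained promoters (37.8%, interval 23.8 to 53.5%) and 226 of 3199 kept ones (7.06%; 6.201 to 8.01%). Lost promoters had 28 of 92 (30.4%; 21.3 to 40.9%) and kept promoters of low score 20 of 80 (25%; 15.99 to 35.9%), whose intervals overlap that of the gained ones. Unmarked promoters had 212 of 586, so sharing with SETDB1 at this level was not particular to gained promoters. WT H3K9me3 of the MEFs was present at 13 of the 45 gained promoters with KAP1 (28.9%; 16.4 to 44.3%), 34 of 3199 kept ones (1.06%) and 13 of 92 lost ones (14.1%; 7.74 to 22.95%). It was present at 4 of 80 kept ones of low score (5%; 1.38 to 12.3%) and at 169 of 586 unmarked ones. The share at unmarked promoters was thus like that at gained ones.

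**Figure D4:**
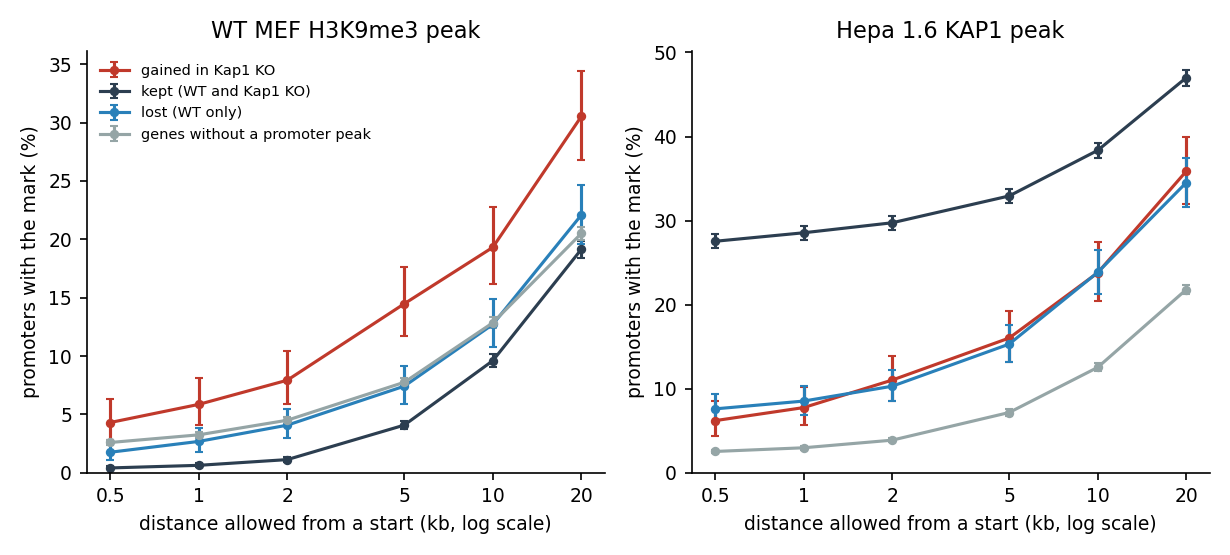
Share of promoters (y axis, percent, with exact 95% intervals) that have a WT MEF H3K9me3 peak (left) or a Hepa 1.6 KAP1 peak (right) within the distance of a start given on the x axis (kb, log scale). For genes without a promoter peak every start of the gene counted, and for the other sets only starts within 1 kb of the peak. For H3K9me3, with all gene types counted, gained promoters lie above the other 3 sets from 0.5 to 20 kb, with 5.86% at 1 kb, whereas at protein-coding genes the shares at 1 kb were 4.53% of gained and 4.43% of unmarked promoters. For KAP1 they run with the lost promoters, at 7.76% and 8.53% at 1 kb, below the kept promoters.

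KAP1 scores were highest at Irx1, Fcgr3, Gm15784 and the 5S ribosomal RNA copy n-R5s106, each with 3100 and each in the SETDB1 list. At Irx1 the KAP1 peak chr13:72100067-72102124 covers the sequence printed above, with its 20 CpGs. A weak WT H3K9me3 peak (64.9) stood just upstream of the gained peak there, at chr13:72101724-72102133. At Fcgr3 KAP1 covered chr1:172993714-172997460, over both the gained peak and the H3K9me3 domain, and a Kap1 KO H3K9me3 peak at the threshold (50.1) remained inside it. The SETDB1 list also held n-R5s125 (KAP1 score 1686), Tex14 (1276), AC160471.1 (1098), Msx3 (1092), Adamts9 (1039) and the U3 copy (909). Msx3 is a homeobox gene of the neural tube and Tex14 a gene of germ cell bridges, and their gained peaks were weak, 52.98 and 74.9. Adamts9, a secreted metalloprotease gene, had a gained peak of 277 and no WT peak within 234722 bp. Hoxa13 (557) and Gm5499 (474) were bound by KAP1 and were not in the SETDB1 list.

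KZFP genes made up 18 of the gained promoters (3.10%, interval 1.85 to 4.86%), beside 2.28% of all promoter peaks of Kap1 KO cells, 2.24% of kept and 0.464% of lost ones. A gene was taken as a KZFP gene when its body, extended by 1 kb at the 3' end, held a KZFP/rGU element of the study, which gave 424 genes from 548 elements. Of these, 249 had a promoter peak in both genotypes, 17 in Kap1 KO only, 5 in WT only and 153 in neither. Over all 33863 genes, 1.42% (480) had a promoter peak in Kap1 KO only and 2.48% (841) in WT only. For KZFP genes the figures were 4.01% (interval 2.35 to 6.34%) and 1.18%.

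Chromosome 4 held most of them. Of its 39 KZFP genes, 11 had a promoter peak in Kap1 KO only (28.2%; 15.0 to 44.9%), none in WT only, 16 in both and 12 in neither. On the other chromosomes 6 of 385 had one in Kap1 KO only (1.56%; 0.574 to 3.36%) and 5 in WT only. The 12 gained KZFP promoters of chromosome 4 lay within 2.05 Mb, chr4:145104264-147150565. The interval runs from the first to the last of these gained peaks, so its H3K27ac counts follow in part from the selection and are a description only. In that interval WT cells had 18 H3K27ac peaks and Kap1 KO cells 54, while H3K9me3 had 179 peaks in WT and 14 in Kap1 KO cells. Hepa 1.6 cells had 23 KAP1 peaks there, 16 of them in the SETDB1 list. Yet KAP1 was absent from the 18 gained KZFP starts themselves, and 2 of them, Gm13138 and Gm13154, had a WT H3K9me3 peak within 1 kb, with scores of 53.6 and 58.8.

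The highest gained KZFP promoter was Gm13051 with a score of 858, at chr4:146068107-146070254. It was followed by 2410141K09Rik of chromosome 13 with 747, Gm13138 with 639, Gm13247 with 587 and 2410018L13Rik of chromosome 12 with 514. Gm13225 had 477, Zfp600 410, Gm13154 361, Gm14406 of chromosome 2 307 and Zfp558 of chromosome 9 259. Gm13157 with 247 and the lincRNA Gm17452 with 222 complete the 12 highest. The gained peak covered an annotated start at each of these 12. Gm13247 and Gm13157 had a WT peak at another start, and the other 10 had none. Among the 12, CpG ratios were under 0.3 except at 2410018L13Rik (0.849) and Zfp558 (0.626).

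The chromosome 4 promoters were related to different degrees. Without Gm17452, whose stretch was at most 51.2% identical to any of the others, the 300 bases before the starts of the 11 others were 57.1 to 95.3% identical over 55 pairs, with a median of 75.5%, and Gm13225 and Gm13051 were the closest pair. Of all 80526 annotated starts, 38 had the run ggaagctaattaa in the 300 bases before them. On chromosome 4 it was found at 9 of the 11 KZFP genes with a peak in Kap1 KO only, 8 of the 16 with a peak in both genotypes and 1 of the 12 with neither, and at none of the 385 KZFP genes of other chromosomes. The run was defined from gained promoters, so its frequency there is no finding. Reads from such copies can be placed on the wrong copy. How reads with several equal positions were treated in the ChIP-seq is not given in the sources used here, so which copy gained H3K27ac is uncertain where copies are nearly identical.

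Among the gene lists, apart from the small families chosen after their values were seen, interferon response genes had the highest share with a peak in Kap1 KO only after the KZFP genes of chromosome 4. These genes are switched on by interferon and by viral nucleic acid. Of 54 measured, 7 had a promoter peak in Kap1 KO only (12.96%, interval 5.37 to 24.9%) and 1 in WT only, while 36 had one in both. Gbp6, an interferon-induced GTPase gene, had a score of 507 at chr5:105721988-105723502. Mx2, an antiviral dynamin-like GTPase gene, had 349, and Oas3, which senses double-stranded RNA, had 339. Rtp4 had 296, Oas1a 130, the ubiquitin-like modifier gene Isg15 99.8 and Oasl2 85.3. The peaks covered a start at each of these 7 genes and ranged from moderate to near the threshold. A WT peak lay 1454 bp from the gained peak of Isg15 and 3801 bp from that of Oasl2, and the nearest to the other 5 was at 33490 bp. Bst2 (tetherin) had a gained peak of 51.5 beside its WT peak, 35 bp away. None of the 7 had a WT H3K9me3 or a Hepa 1.6 KAP1 peak within 1 kb of the start.

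The remaining interferon genes showed no common direction towards Kap1 KO cells. Of the 36 genes with a peak in both genotypes, the highest promoter score was higher in Kap1 KO at 7, higher in WT at 17 and equal at 12. The 12 equal ones all stood at 3100, where strong peaks pile up, so a difference could be hidden there. Psmb9 is annotated more than once among them, and each entry counts. Xaf1 had 77.8 in WT and 633 in Kap1 KO, and Irf9 421 and 1420. Ifih1 had 2903 in WT and 971 in Kap1 KO. These 3 genes were chosen after their values were seen. The interferon element was present at 5 of the 7 genes with a peak in Kap1 KO only, 25 of the 36 with both and 4 of the 10 with neither, where any start of a gene counted. The element was thus found at interferon genes in each state.

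**Figure D5:**
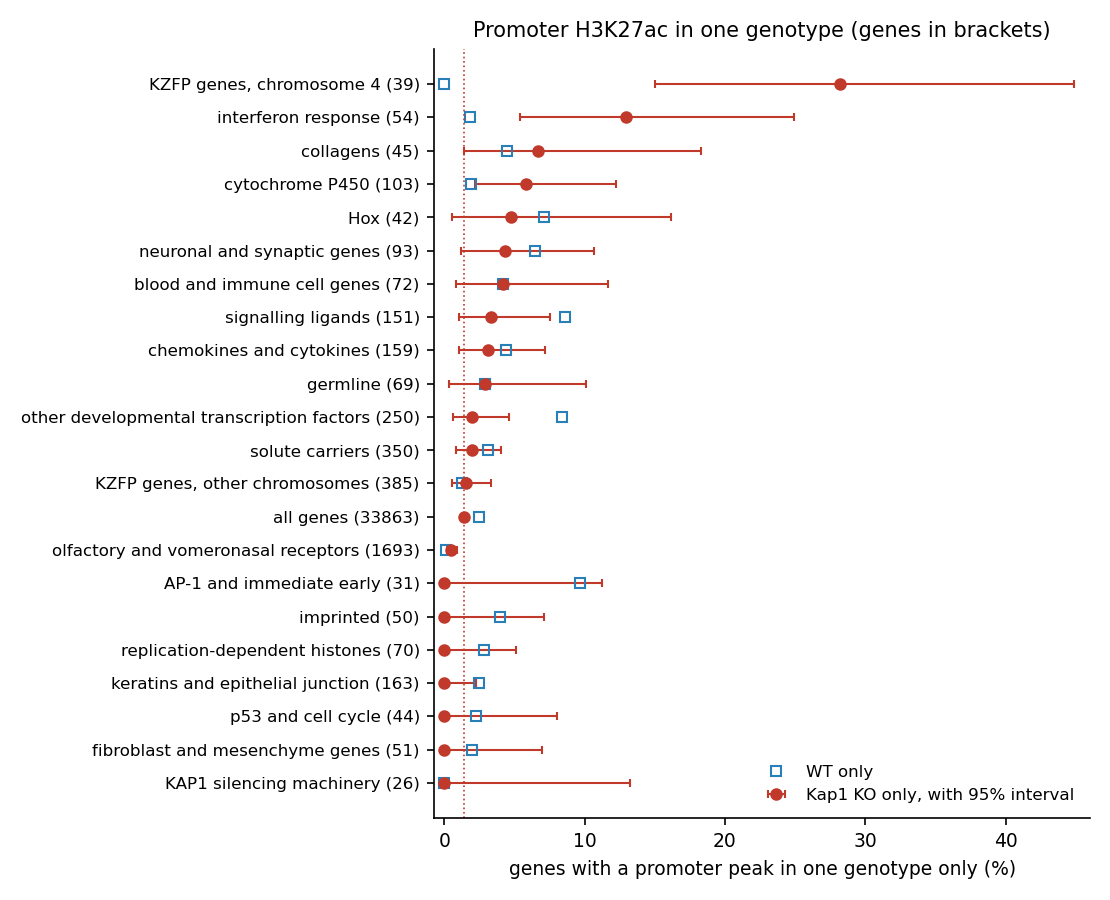
Share of the genes of each list (y axis, number of genes in brackets) that had a promoter H3K27ac peak in Kap1 KO only (red points with exact 95% intervals) or in WT only (blue squares). KZFP genes of chromosome 4 (28.2%) and interferon genes (12.96%) lie highest, against 1.42% of all genes (dotted line), and the developmental transcription factors lie higher in WT only (8.4%) than in Kap1 KO only (2%).

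Developmental genes had a promoter peak more often in WT only than in Kap1 KO only, as all genes did (2.48% against 1.42%). Of 250 transcription factor genes outside the Hox clusters, 5 had a peak in Kap1 KO only (2%, interval 0.653 to 4.61%) and 21 in WT only (8.4%). The gained ones were Irx1, the heart factor Nkx2-5 (358), the muscle factor Myog (154), Hnf4g (71.3) and Msx3. The non-coding gene Sox2ot had a gained peak of 51.4 and also a WT promoter peak. Of 42 Hox genes, 2 had a peak in Kap1 KO only and 3 in WT only. Hoxd3, which patterns the embryonic axis, had a strong gained peak (1128, chr2:74548754-74550798), and Hoxa13 was described above. Signalling ligands were alike, with 5 of 151 in Kap1 KO only and 13 in WT only. The gained peaks were at Bmp8b (239), Fgf21 (176), Fgf9 (152), Sema3g (134) and Ntf3 (91.5), and at Efna3 (62.9), which also had a WT promoter peak.

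Germline genes, many of which need DNA methylation to stay silent in somatic cells, were near the background, with 2 of 69 in Kap1 KO only and 2 in WT only. Spo11, which makes the DNA breaks that start meiotic recombination, had a strong gained peak of 943 at chr2:172801165-172803875. Dppa5a had 75.8, and Cpeb1 (148) and Tex14 gained peaks while also having a WT promoter peak. Imprinted genes had none of 50 in Kap1 KO only, and Meg3 had a gained peak of 78.9 beside its WT peak.

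Neuronal genes had 4 of 93 in Kap1 KO only (4.30%, interval 1.18 to 10.6%) and 6 in WT only. The interval includes the share of all genes, 1.42%. Gad1 (930) and Gad2 (89.0) encode the enzymes that make the transmitter GABA. Syt13, a synaptotagmin gene, had 487. Gap43, a gene of growing axons, had gained peaks at both of its start regions, of 361 and 303, each at least 84545 bp from a WT peak. Shank3 had 113 and also a WT promoter peak.

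Cytochrome P450 genes, enzymes of drug and steroid metabolism, had 6 of 103 in Kap1 KO only (5.83%; 2.17 to 12.2%) and 2 in WT only. Over all genes the share in Kap1 KO only was 1.42%. Cyp2c40 had 1409 and Cyp2c69 733 and 127, all 3 on chromosome 19 and at least 343582 bp from a WT peak, though none of the 3 peaks covered a start. The adrenal steroid 21-hydroxylase gene Cyp21a1 (488) and its copy Cyp21a2-ps (339) both gained a peak and both had WT H3K9me3, and reads of these near copies are uncertain. Cyp4a29-ps had 212.

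Blood and immune lists stayed within a few percent, beside 1.42% of all genes in Kap1 KO only and 2.48% in WT only. That share of 1.42% lies inside the intervals of the chemokine (1.03 to 7.19%), blood cell (0.868 to 11.7%), solute carrier (0.808 to 4.08%) and collagen lists. Chemokines and cytokines had 5 of 159 genes in Kap1 KO only (3.14%) and 7 in WT only, with gained peaks at Tnfsf15 (437), Il24 (314), Cxcl17 (238), Tnfsf18 (190) and Tnfsf8 (104). A further gained peak of 635 had Gm15895 as its nearest start and lay within 1 kb of a start of Il34, a gene with promoter peaks in both genotypes. Blood cell genes had 3 of 72 in each direction, with gained peaks at the IgG receptor genes Fcgr2b (495) and Fcgr3 and at Cd5 (57.3). Gfi1 had a gained peak of 73.0 and also a WT promoter peak. Solute carriers had 7 of 350 (2%), led by Slc22a13b (490), Slc6a12 (365), Slc25a18 (176), Slc4a5 (154) and Slc7a7 (138). Collagens, the matrix genes of fibroblasts, had 3 of 45 (6.67%; 1.397 to 18.3%): Col28a1 (244), Col19a1 (187) and Col15a1 (68.1). Col18a1 (265) and Col6a3 (174) gained peaks at additional starts. Olfactory and vomeronasal receptor genes had 8 of 1693 (0.473%; 0.204 to 0.929%), below all genes, with the highest scores at Olfr984 (418) and Olfr983 (328).

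No gene had a promoter peak in Kap1 KO only among 26 of the KAP1 silencing machinery, 163 keratin and epithelial junction, 70 replication-dependent histone, 31 AP-1 and immediate early, 44 p53 and cell cycle and 51 fibroblast genes. At 26 genes a count of 0 allows a share of up to 13.2%, and at 163 up to 2.24%. Most genes of the silencing machinery (24 of 26), the histones (67) and the cell cycle list (42) had a peak in both genotypes and had no place for a gain. Fibroblast genes gained peaks only beside a WT peak of the same gene, at Vim (262), Col6a3 and Sparc (70.5).

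Many gained promoters had another Kap1 KO only peak nearby, and lost promoters were similar for WT only peaks. Of all Kap1 KO peaks 21.8% were Kap1 KO only, and the share of kept promoters with such a neighbour was not computed. Another Kap1 KO only peak, at a promoter or not, lay within 50 kb of 321 of the 580 (55.3%), while 547 of 1078 lost promoters (50.7%) had another WT only peak. No WT peak lay within 100 kb of 77 gained promoters (13.3%), and no Kap1 KO peak lay within 100 kb of 84 lost ones (7.79%). Of 16 runs of at least 3 gained promoter peaks spaced by less than 100 kb, the one with the most was at bitter taste receptor genes, chr6:132699107-132753911. It held 5 gained promoter peaks at Tas2r124 (2011), Tas2r102 (1411), Tas2r136 (328 and 75.8) and Tas2r117 (252), 8 Kap1 KO peaks in all and no WT peak. Of 35 Tas2r genes 4 had a promoter peak in Kap1 KO only (11.4%, interval 3.20 to 26.7%), beside 1.42% of all genes, and none had one in WT. Other runs lay at Gbp8, Gbp9 and Gbp4 on chromosome 5 (181, 963 and 117), at Slfn8, Slfn10-ps and Slfn2 on chromosome 11 (59.2, 1010 and 1546), at Aim2 and Cadm3 on chromosome 1, and at Cyp2c genes on chromosome 19. Gbp, Slfn and Aim2 genes are known to be interferon-inducible. A peak in Kap1 KO only was found at 4 of 11 Gbp (interval 10.9 to 69.2%), 4 of 12 Oas (9.93 to 65.1%) and 2 of 10 Slfn genes (2.52 to 55.6%). The intervals of these small families are wide, and the share over all genes was 1.42%. These families and runs were chosen after their values were seen and get no test.

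Copies of small RNA genes were also found among gained promoters. Of 912 genes annotated as SNORA, 29 had a peak in Kap1 KO only (3.18%; 2.14 to 4.53%), 10 in WT only and 58 in both. Copies of 7SK had 6 of 291 (2.06%) and of U6 5 of 847 (0.590%) in Kap1 KO only, beside 1.42% of all genes. Counts at such repeated copies are uncertain, and the placing of their reads was not tested.

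By chromosome, gained promoters were 2.97% of promoter peaks on chromosome 10 and 6.24% on chromosome 6, with all others between, and chromosome 4 had 5.23% (44 of 841 peaks). Members nearest the limits of the rule were at the U3 copy (107.8, 15 bp from a WT peak), Bst2 and Vim (109 bp). On the other side of it, the kept peaks at Pdzd7 (64.9), Hnrnpd (109.3) and Gm14010 (347) shared 2, 107 and 111 bases with a WT peak. The lowest gained scores were 50.2 at Kif5c, 50.3 at Gm17502 and 50.5 at RP23-3M10.7.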

How the data were processed

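The 6 peak lists were used as deposited. The score in each list is the value the authors deposited. Per the submitters' processing notes and the methods, reads were mapped to mm9 with Bowtie2 2.2.1 in the sensitive-local mode, with total input as the control for MACS 1.4. The methods state a cutoff score of 80, which both Hepa 1.6 lists meet, whereas the MEF lists start at 50. Reads were not analysed here, and the depth behind each list is unknown. Other libraries of the study were not analysed here.

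Overlaps, distances and shares were computed in Python 3 with numpy, pandas and scipy. The code was checked by removing the WT peaks over some kept promoter peaks, which then counted as gained. That checks the code and not the peak calls. Transcript starts came from GENCODE for mm9 (33863 genes on the 18 chromosomes used), and sequences from the mm9 genome. Where a peak lay near several starts, the nearest gave its gene, with protein-coding genes preferred in ties. KZFP/rGU coordinates came from the study's supplement. The alignment of promoters was global. Genes described by name were the 12 gained peaks of highest score, up to 6 by score in each gene list, the 12 with the highest H3K9me3 and KAP1 scores, the 12 highest KZFP promoters and the peaks at the limits of the rule. The members and lists were chosen with earlier results of these data known. Shares carry exact Clopper-Pearson 95% intervals. The alternatives were other promoter windows, score thresholds, starts and mark distances.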

Additional observations from a re-analysis of the deposited data

How the results depend on the processing

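Of 53 values recomputed under other settings, 36 stayed within the 95% interval of the reported value, or within 1.5-fold of a count. The number of gained promoters fell from 580 to 265 when only the 50% of peaks with the highest score in each list were compared. The share of promoter Kap1 KO peaks gained was 4.92% and moved to 4.52% when no WT peak was allowed within 1 kb, 3.89% and 6.67% with promoter windows of 500 bp and 2 kb, 3.77% with the middle of the peak within 1 kb, 3.92% at a score of at least 80, 2.74% in the top 50% of scores and 3.66% with protein-coding starts only. The share at genes without a WT promoter peak was 75.2% with no WT peak within 1 kb, 61.9% with 2 kb, 80% in the top 50% of scores and 60.3% with protein-coding starts. The median CpG ratio was 0.257 with 2 kb, 0.279 in the top 50% of scores and 0.258 with protein-coding starts. With marks counted up to 5 kb from the start, 14.5% of gained promoters had WT H3K9me3 and 16% Hepa 1.6 KAP1. Apart from mark distance, the shares with H3K9me3, KAP1 and KZFP genes stayed within their intervals under the settings run. The cause of these shifts was not tested. No paired analysis was possible because each condition had 1 library and no test between genotypes was run.

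The lists hold peaks called in 1 library each, so a gained promoter is a statement about 2 libraries. Depth limits which weak peaks were called. The Hepa 1.6 lists come from another cell type.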
